A study of Mus musculus with 35 samples.

Results

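Testes of Akt1-/- (homozygous) mice were compared with wild type (Akt1+/+) testes after exposure of both to propylthiouracil (PTU), at postnatal day 25. The comparison takes all the arrays that carry these labels: 2 from homozygous and 3 from wild type mice, 5 of the 17 arrays of that age and of 35 in the whole series. Each gene was read from its brightest probe set among those with 1 gene symbol, which left 16305 of 18194 genes above a filter on low values.

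The study crossed Akt1 genotype (wild type, heterozygous, homozygous) with PTU exposure or none and took testis RNA of male C57BL6 mice at postnatal day 15 and day 25, on a different array type at each age. A mouse was planned for each array, and 1 more chip of the exposed homozygous group at day 25 was judged by the submitters to be of poor quality and is not analysed here. The title names the blood-testis barrier after neonatal exposure to this goitrogen as its subject. All animals set against each other in the main comparison, the wild type ones too, were exposed to PTU. Its dose and days, the deleted part of Akt1, and the litters are not stated in the labels. Unexposed wild type and homozygous mice of day 25 (3 arrays each), exposed heterozygous mice of day 25 (3 arrays) and exposed wild type and homozygous mice of day 15 (3 arrays each) serve for reference.

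PTU blocks the synthesis of thyroid hormone, the signal that stops Sertoli cell division and drives the maturation of the young testis. Akt1 is a serine/threonine kinase that acts below phosphoinositide 3-kinase in growth factor and insulin signalling. In a mouse testis of this age the first wave of germ cells has passed through meiosis and makes round and then elongating spermatids, behind a barrier of tight junctions between Sertoli cells.

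All values below are log2 intensities, so a difference of 1 is a doubling. A gene is said to rise or fall where limma's adjusted p is under 0.05. Fold changes are homozygous minus wild type ± standard error, and in bulk tissue fewer cells of a type and less RNA per cell cannot be told apart.

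Several measures of the arrays differed between the groups before any testis gene was read. The summed level of 7 epididymal markers was 13.03 and 12.88 in the exposed homozygous arrays. In exposed wild type it was 8.88, 8.85 and 9.65, in exposed heterozygous mice 9.02, 10.56 and 8.81, and in the 9 unexposed arrays 8.68 to 9.09. Spink8, a protease inhibitor of the epididymis, read 12.92 and 12.75 against 5.99, 5.97 and 8.72, and Adam7, an epididymal membrane protein, 8.38 and 8.50 against 4.48, 4.40 and 5.0. Spink8 alone makes up most of the sum in the homozygous arrays. Of 6 epididymal markers tested 3 rose and 1 fell, while Lcn8 read 4.99 and 4.96 against 4.94 to 5.01 in wild type. Summed fat markers were 10.69 and 9.64 against 8.85, 10.61 and 12.02, so the groups overlap there. For beta-actin the 3' probe sets exceeded the 5' ones, a sign of RNA integrity and labelling, by 1.08 and 1.44 against 0.59, 0.56 and 0.67, and 0.95 to 1.31 in unexposed homozygous mice. The same difference for Gapdh was -0.11 and 0.21 against -0.16, -0.18 and -0.18. It was 0.00, -0.13 and -0.10 in exposed heterozygous mice and 0.18, -0.11 and 0.29 in unexposed homozygous mice. Poly-A control transcripts averaged 8.25 and 9.64 against 8.21, 7.87 and 8.47. Pearson correlation over genes was 0.974 between the exposed homozygous arrays, 0.994 to 0.998 among exposed wild type arrays and 0.872 to 0.961 between the groups. The first principal component carried 77.4% of the variance and placed the exposed homozygous arrays at 88.4 and 136.2, with the other 15 between -53.1 and 17.2.

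**Figure D1:**
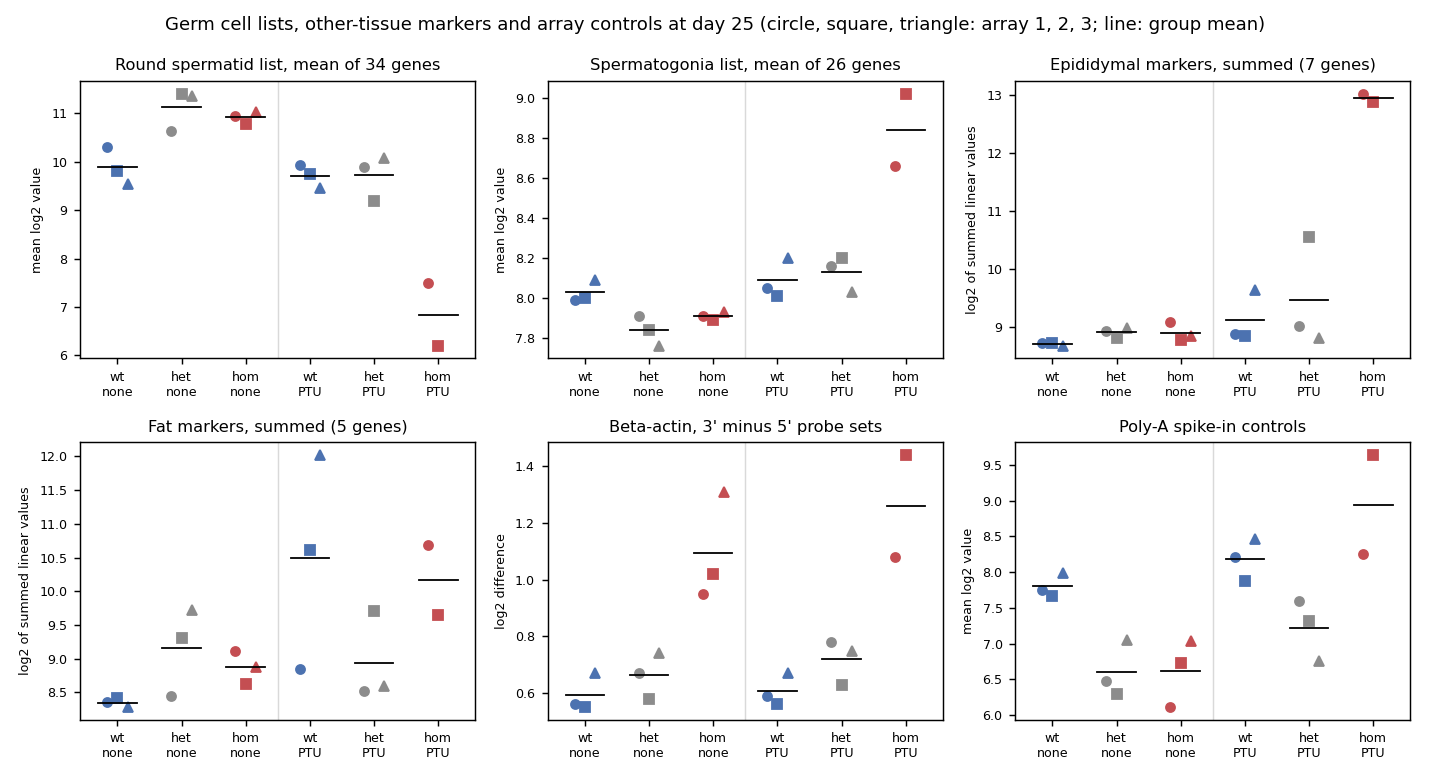
Mean level of the round spermatid and spermatogonia lists, summed epididymal and fat markers, the beta-actin 3' minus 5' difference and the poly-A controls, all on a log2 axis, in each of the 17 day 25 arrays; symbols are arrays 1 to 3 of a group and lines are group means. The exposed homozygous arrays are lowest for round spermatid genes (7.49 and 6.20) and highest for epididymal markers (13.03 and 12.88), and array 3 of exposed wild type (9.65) and array 2 of exposed heterozygous mice (10.56) also carry epididymal transcript.

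The exposed homozygous testis differed from the exposed wild type testis in most genes measured. Of 16305 genes tested 9959 passed (61.1%), 5334 higher (32.7%) and 4625 lower (28.4%), with a median fold change of 0.00 and a median size of 0.43. The counts and medians of gene lists below are to be read against these shares, and no list was tested as a whole. Changes of more than 1 were called in 2778 genes (17% of those tested), 1080 higher (6.62%) and 1698 lower (10.4%). The arrays of the groups did not overlap in 12075 genes (74.1%). Array 2 of the homozygous group lay farther from the wild type mean than array 1 in 89.1% of the higher and 87.4% of the lower genes. Its median distance was 0.83 against 0.52 in array 1 for the higher genes, and -0.93 against -0.58 for the lower. Leaving out 1 of the 5 arrays at a time gave 7241 to 10428 calls, and 6712 of the 9959 genes (67.4%) were called in the same direction every time. With the beta-actin difference as a covariate 592 genes passed (3.63%), and the median standard error went from 0.13 to 0.25. Without the exposed wild type and heterozygous arrays that carry epididymal transcript 9439 passed. The part of RNA integrity and of epididymal tissue in these counts was not tested further.

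**Figure D2:**
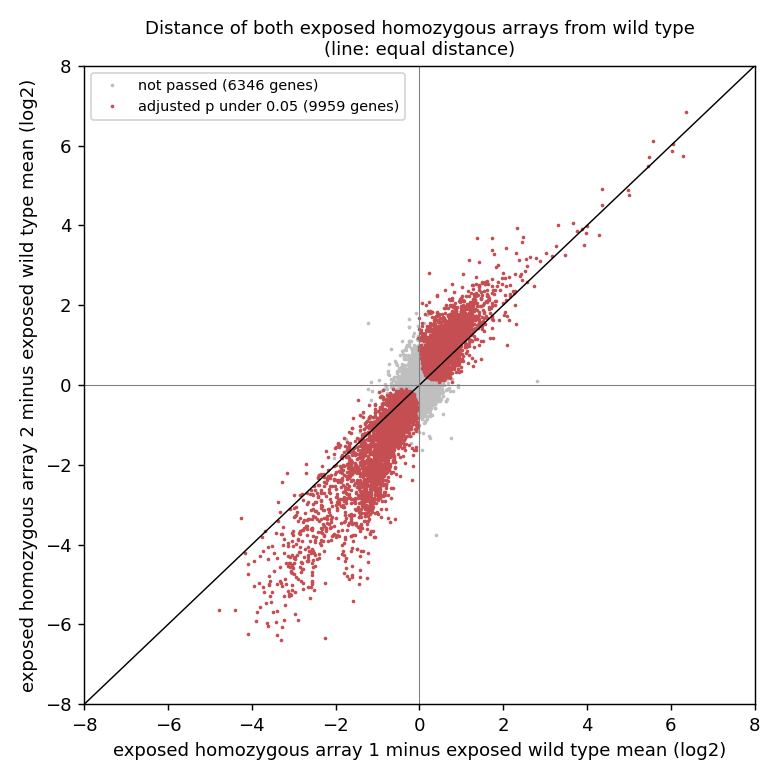
Each point is 1 of 16305 genes: the distance of exposed homozygous array 1 (x axis) and array 2 (y axis) from the exposed wild type mean, in log2 units; red points passed the test (9959 genes), grey points did not, and the line marks equal distance. Most red points lie on the far side of the line from 0, since array 2 was farther from wild type in 89.1% of the higher and 87.4% of the lower genes.

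Transcripts of spermatids fell in the exposed homozygous testis. Acrv1, a protein of the acrosome, read 6.56 and 4.23 in homozygous and 10.48, 10.32 and 9.77 in wild type arrays, a change of -4.80 ± 0.50 (adjusted p = 5.15e-06). The groups stand well apart, and the homozygous arrays also differ from each other by more than the wild type arrays do. The pooled standard error does not measure that difference between the homozygous arrays. Izumo1, the sperm protein needed for fusion with the egg, read 6.06 and 5.53 against 9.17, 9.02 and 8.66 (-3.15 ± 0.31, adjusted p = 3.82e-06). Catsper1 and Catsper3, pore subunits of the sperm calcium channel, changed by -3.25 ± 0.30 and -2.80 ± 0.28. Spaca7, another acrosomal protein, went from 9.53, 9.29 and 8.89 in wild type to 5.58 and 3.78. Of 34 round spermatid genes tested 30 fell, 0 rose and 4 did not pass, and the fold changes ran from -4.82 to -1.05 with a median of -2.93, against 0.00 over all genes. In all 34 both homozygous arrays lay below every wild type array, where 74.1% of all genes tested had no overlap in either direction. In 33 of the 34, array 2 was lower than array 1, and it lay under 4.76, the 25th percentile of all values, in 10 of them against 1 in array 1.

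Elongating spermatid genes were mostly lower too, with 26 of 30 called. Tnp1, a transition protein that replaces histones in the spermatid nucleus, read 5.36 and 5.32 in the homozygous arrays and 10.27, 9.38 and 8.90 in wild type (-4.18 ± 0.83, adjusted p = 5.18e-04). Prm1, the protamine that follows it, read 6.77 and 6.31 against 9.79, 8.84 and 7.92 (-2.31 ± 0.92, adjusted p = 0.0401). Both homozygous arrays were at nearly 1 level for these genes, while wild type arrays spread over more than 1 unit. The call for Prm1 was lost without homozygous array 1 (adjusted p = 0.0731) or 2 (0.168) and without wild type array 1 (0.132) or 2 (0.0741). Capza3, an actin-capping subunit of the sperm head, had the steepest fall of the list, from 10.18, 10.02 and 9.51 to 5.99 and 3.98 (-4.92 ± 0.49). Odf1, a part of the outer dense fibres of the tail, changed by -4.84 ± 0.59, and Smcp, a protein of the mitochondrial sheath of sperm, by -4.84 ± 0.64. Gapdhs, the sperm form of glyceraldehyde phosphate dehydrogenase, went from 10.14, 9.93 and 9.57 to 6.79 and 5.32 (-3.83 ± 0.42). Of the 30 genes 0 rose and 4 did not pass, with a median of -2.84 and a range from -4.92 to 0.14. Among 27 axoneme genes, which build the core of the tail, 23 fell and 0 rose (median -1.39). Spag17 of the central apparatus read 6.24 and 6.10 against 7.91, 7.70 and 7.95, close between the homozygous arrays. Spag8 changed by -1.90 ± 0.21 and Rsph9, a radial spoke protein, by -1.63 ± 0.20.

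The regions just before the start sites of some of these genes are shown because many of them are known to be switched on in spermatids by CREM, a factor that binds the cAMP response element. RefSeq promoters of build GRCm38.p6, running from 250 bases before to 50 after a start, were searched for TGACGTCA and for the relaxed form TGANNTCA, which includes it; both read the same on either strand. The relaxed form was chosen after promoters of the spermatid lists had been looked at, so its share there is no independent support. It lay in 19 of 39 promoters (48.7%) of the 33 matched round spermatid genes and in 13 of 39 (33.3%) of the 28 matched elongating spermatid genes. The share was 4637 of all 32851 promoters (14.1%) and 1803 of the 16478 promoters of tested genes (10.9%). For later spermatocytes it was 6 of 28 (21.4%), for spermatogonia 2 of 27 (7.41%), for Sertoli products 2 of 24 (8.33%) and for tight junction genes 0 of 17. The exact form lay in 2 of 39 round spermatid promoters (5.13%), 0 of 39 elongating spermatid promoters, 2 of 28 of later spermatocytes (7.14%), 2.6% of those of tested genes and 1.79% of all. A match is a description of the letters and no evidence of binding. The 110 bases before the start follow, 5′ to 3′, with matches to the relaxed form in capitals; 6 genes were chosen because they hold one, and Acrv1, which fell as far, holds none in this stretch.
Tnp1 (chr1:73015900-73016009, minus strand): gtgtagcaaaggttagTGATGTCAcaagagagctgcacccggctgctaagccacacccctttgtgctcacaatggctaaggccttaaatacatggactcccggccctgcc
Prm1 (chr16:10796824-10796933, minus strand): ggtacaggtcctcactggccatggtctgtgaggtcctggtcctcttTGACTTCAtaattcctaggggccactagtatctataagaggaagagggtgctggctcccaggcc
Izumo1 (chr7:45621701-45621810, plus strand): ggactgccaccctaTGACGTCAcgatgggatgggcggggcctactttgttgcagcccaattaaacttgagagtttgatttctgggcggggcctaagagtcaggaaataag
Tmco2 (chr4:121109218-121109327, minus strand): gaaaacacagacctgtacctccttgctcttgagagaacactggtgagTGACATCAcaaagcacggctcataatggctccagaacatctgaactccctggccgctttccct
Spaca7 (chr8:12572926-12573035, plus strand): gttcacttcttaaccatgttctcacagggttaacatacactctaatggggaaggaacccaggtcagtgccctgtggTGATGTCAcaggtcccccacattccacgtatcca
Gapdhs (chr7:30743682-30743791, minus strand): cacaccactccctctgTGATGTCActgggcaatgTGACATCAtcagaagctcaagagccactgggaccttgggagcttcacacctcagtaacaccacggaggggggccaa
Acrv1 (chr9:36693110-36693219, plus strand): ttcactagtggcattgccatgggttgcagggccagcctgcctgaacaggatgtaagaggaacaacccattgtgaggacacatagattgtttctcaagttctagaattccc

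Germ cells of earlier stages gave other values. In the list of later spermatocytes 28 of 32 genes fell and 1 rose (median -1.33). Pgk2, the phosphoglycerate kinase that replaces its X-linked form in meiosis, read 10.24 and 7.64 against 11.95, 11.80 and 11.46 (-2.80 ± 0.47, adjusted p = 1.31e-04), with array 2 the lowest by far. Spag6, an axoneme protein made from this stage on, changed by -4.09 ± 0.43. Ybx2, which binds stored mRNA of germ cells, fell from 13.99, 14.02 and 13.93 to 13.08 and 12.41. Rfx2, a factor that drives cilium genes in spermatocytes and spermatids, changed by -1.57 ± 0.19. Of 34 genes of meiotic entry, synapsis and recombination 17 rose and 6 fell (median 0.25; 67.6% called against 61.1% of all genes), which became 11 and 2 without homozygous array 2. Dmc1, the meiotic recombinase, read 10.57 and 10.54 against 9.46, 9.53 and 9.80 (0.96 ± 0.14), and Tex15, needed for meiotic repair, 11.63 and 11.74 against 10.77, 10.80 and 10.72 (0.93 ± 0.08). Sycp3, the axial element of meiotic chromosomes, read 13.59 and 13.67 against 13.21, 13.22 and 13.37 (0.36 ± 0.12, adjusted p = 0.0154), a call lost without homozygous array 2 (adjusted p = 0.0946). Rec8, a meiotic cohesin, fell by 1.27 ± 0.18 on the log2 scale.

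Spermatogonial genes rose. Zbtb16, a factor of undifferentiated spermatogonia, read 8.69 and 9.53 against 7.72, 7.52 and 7.88 (1.41 ± 0.19, adjusted p = 2.52e-05). Dnmt3b, a DNA methyltransferase of dividing spermatogonia, read 9.66 and 10.49 against 8.44, 8.36 and 8.65 (1.59 ± 0.18). Foxo1, a factor of stem spermatogonia that Akt kinases phosphorylate, read 9.77 and 10.06 against 8.78, 8.61 and 8.90 (1.15 ± 0.13). In each of these the lower homozygous array stands above the highest wild type array, though 74.1% of all genes tested had no overlap in either direction. The list of 26 had 19 that rose, 3 that fell and 4 that did not pass (median 0.88), and 12 rose by more than 1. Dmrtb1, which guards the entry into meiosis, went the other way, from 12.57, 12.52 and 12.35 to 11.15 and 9.83 (-1.99 ± 0.24). Cdh1, the epithelial cadherin that marks some spermatogonia, rose most (3.13 ± 0.37), and it is also a gene of the epididymal lining. The germ cell lists thus differ in direction by stage within the same arrays, as the plot of gene values by list shows.

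**Figure D3:**
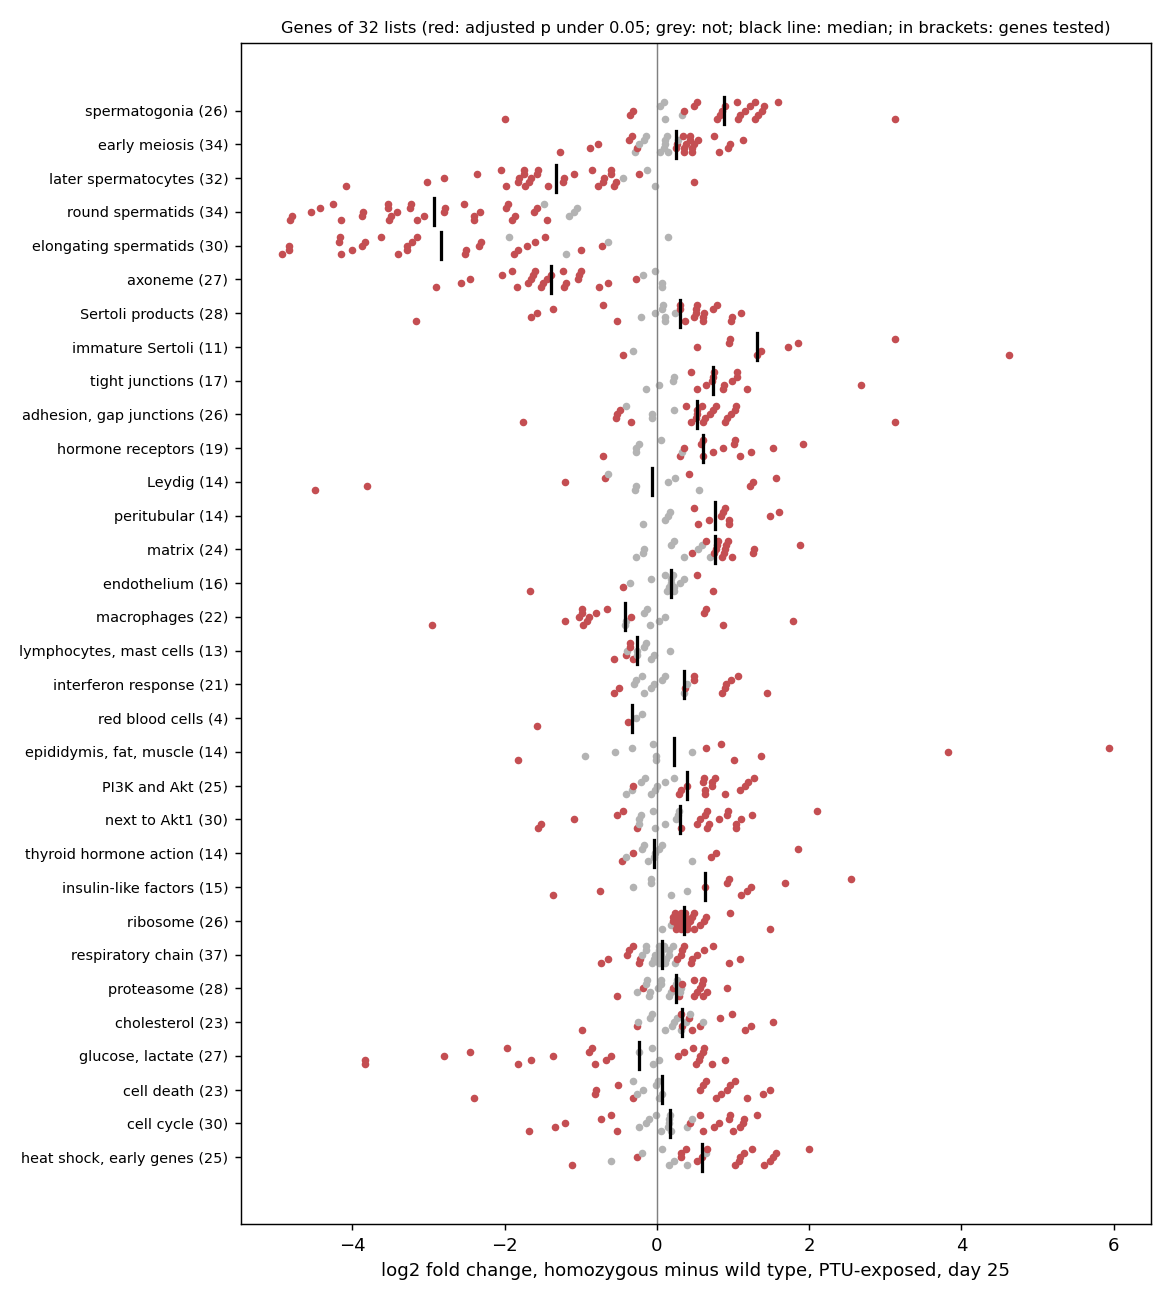
The x axis is the log2 fold change of exposed homozygous minus exposed wild type, and each row holds the tested genes of 1 of 32 lists; red points passed the test, grey points did not, and black lines are medians. Round (-2.93) and elongating spermatid (-2.84) genes lie far to the left, spermatogonia (0.88) to the right and early meiosis (0.25) near 0.

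Beside the spermatid counts stand the array measures given above. Within exposed wild type, array 3 had the highest epididymal sum and was the lowest of its group in 32 of 34 round and 28 of 30 elongating spermatid genes. Within exposed heterozygous mice, array 2 had the highest sum and was the lowest in 34 of 34 and 28 of 30. Without these arrays 30 of 34 and 27 of 30 genes were called lower, with medians of -3.08 and -3.07. The homozygous arrays have nearly equal epididymal sums (13.03 and 12.88) and unequal spermatid levels, 7.49 and 6.20 for the round and 7.81 and 6.69 for the elongating list. With homozygous array 1 alone against wild type the round spermatid median was -2.36, and with array 2 alone it was -3.57. In each case 30 of 34 genes passed in a fit where the lone array is assumed to vary like the other groups, so these counts hold nothing on the spread among homozygous mice. With the beta-actin covariate 5 of the 34 round and 2 of the 30 elongating spermatid genes were still called lower, at list medians of -2.17 and -2.64.

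**Figure D4:**
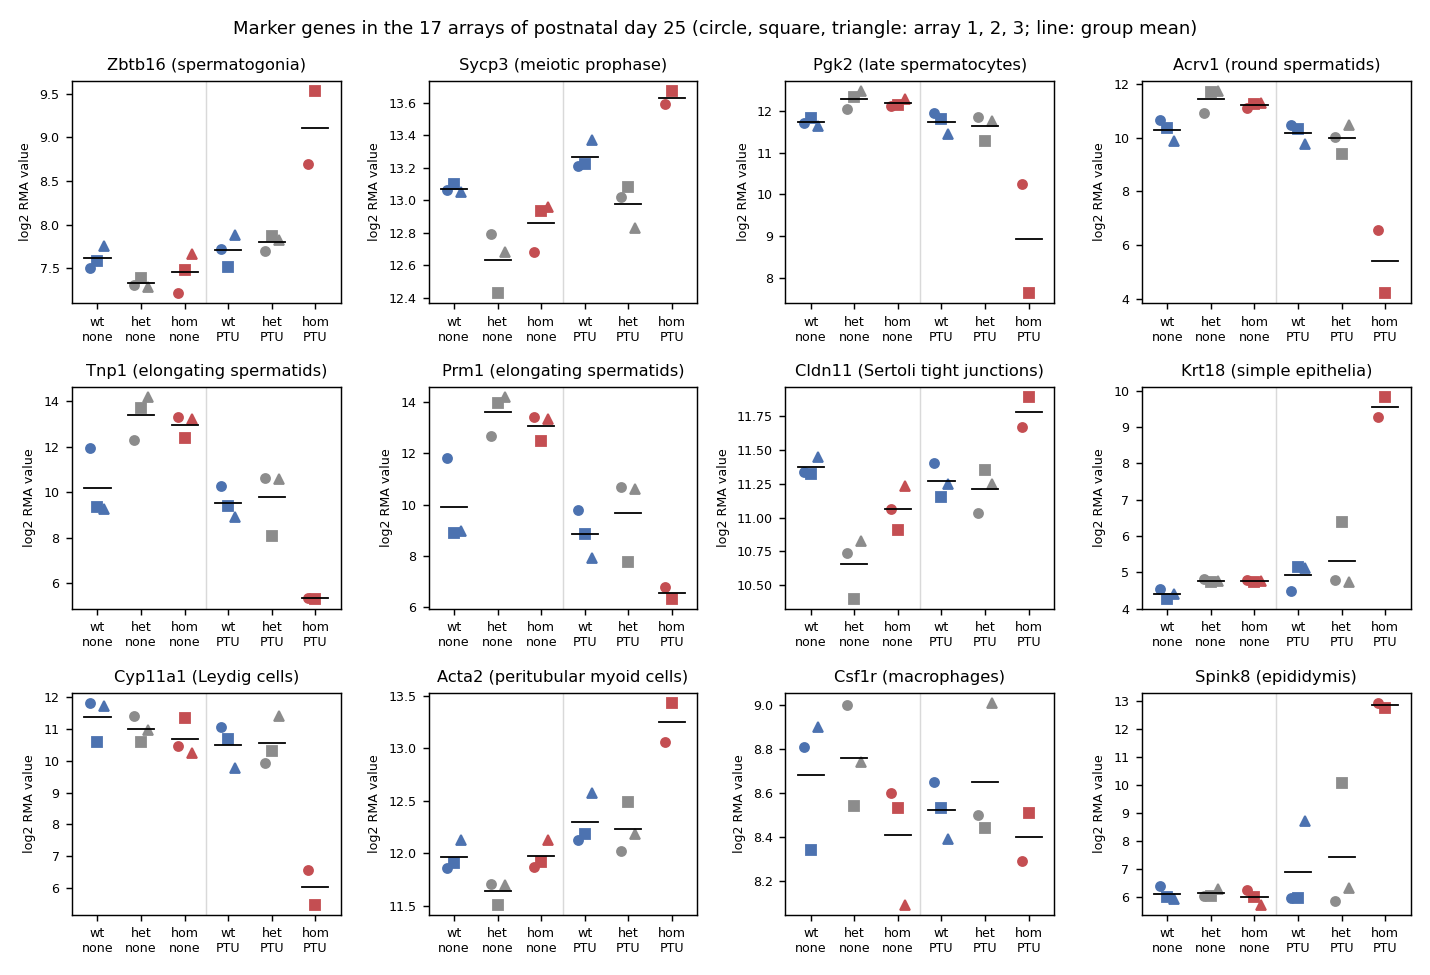
The log2 RMA value of 12 marker genes in the 17 arrays of day 25, by genotype (wt, het, hom) and exposure (none, PTU); symbols are arrays 1 to 3 and lines are group means. Tnp1 lies at 5.36 and 5.32 in the exposed homozygous arrays and at 8.10 or more in every other array, and Cyp11a1 at 6.57 and 5.47 against 9.77 or more, while Spink8 is at 12.92 and 12.75.

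The study's title asks about the blood-testis barrier, and 13 of 17 tight junction genes tested rose, 9 of them also in every fit without 1 array. Over all genes tested 32.7% were higher, and 67.4% of the called genes kept call and direction in every such fit. Cldn11, the claudin of the Sertoli cell barrier, read 11.67 and 11.89 in homozygous and 11.40, 11.15 and 11.25 in wild type arrays (0.52 ± 0.14, adjusted p = 0.00517). That call was lost without homozygous array 2 (0.41, adjusted p = 0.0700). Tjp1, the scaffold protein ZO-1, read 11.32 and 11.52 against 10.69, 10.59 and 10.76 (0.74 ± 0.10), and F11r, the junctional adhesion molecule JAM-A, 10.96 and 11.25 against 9.81, 9.90 and 10.06 (1.18 ± 0.12). Cldn1 gave the widest gap of the list, 7.69 and 8.04 against 4.86, 5.07 and 5.62 (2.68 ± 0.17). In that list 0 fell and the median was 0.74. Epithelia such as the epididymal duct also express claudins, Tjp1 and F11r, and the epididymal sum moves with this group; its part was not tested. Among 26 genes of adhesion, gap junctions and the ectoplasmic specialization, the actin-rich contact of Sertoli cells with each other and with spermatids, 17 rose and 5 fell (median 0.53); without homozygous array 2 those that fell were 2. Ctnnb1, which encodes beta-catenin, changed by 0.92 ± 0.13 and Vcl, which encodes vinculin, by 0.97 ± 0.12. Nectin3, the nectin on the spermatid side of that contact, fell from 13.24, 13.24 and 13.09 to 12.11 and 10.74.

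Genes of the Sertoli cell itself divided. Sox9, the factor that sets its fate, read 8.64 and 9.02 against 8.28, 8.35 and 8.29 (0.53 ± 0.15, adjusted p = 0.00585), a call lost without homozygous array 2 (0.34, adjusted p = 0.117). Dmrt1, a factor of Sertoli cells and spermatogonia, read 11.28 and 11.81 against 10.55, 10.39 and 10.74 (0.99 ± 0.15). Kitl, the ligand that spermatogonia need, rose from 10.41, 10.31 and 10.46 to 11.13 and 11.61 (0.97 ± 0.16). Aqp8, a water channel of Sertoli cells, fell from 9.26, 9.02 and 8.70 to 6.23 and 5.41 (-3.17 ± 0.25), and Drd4, a dopamine receptor gene, by 1.58 ± 0.23. In the list of 28 Sertoli products 15 rose and 6 fell (median 0.30). Among 11 genes that are high in immature Sertoli cells 9 rose and 1 fell (median 1.32). Thra, a thyroid hormone receptor gene that goes down as Sertoli cells mature, read 10.72 and 11.24 against 9.07, 9.07 and 9.24 (1.85 ± 0.14). Ccnd2, which encodes cyclin D2, read 10.07 and 10.26 against 8.80, 8.77 and 8.95 (1.32 ± 0.13), with homozygous arrays close together. The keratin genes Krt18 (4.63 ± 0.36) and Krt8 (1.72 ± 0.18) rose too, and both belong to simple epithelia in general. Cdh1, given above, is counted in this list and in the adhesion list as well. In exposed heterozygous array 2, which carries epididymal transcript, Krt18 read 6.39 against 4.79 and 4.73 in arrays 1 and 3. Cdh1 read 4.92 there against 3.95 and 3.82, and Krt8 7.52 against 7.42 and 7.09. The part of epididymal tissue in this list was not tested. Amh, the hormone of the immature Sertoli cell, was the member that fell, from 7.60, 7.92 and 7.66 to 7.21 and 7.35 (-0.45 ± 0.15, adjusted p = 0.0168). Its call was lost without homozygous array 1 (adjusted p = 0.0915) or wild type array 2 (0.0730).

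Leydig cells make testosterone, and their first enzyme fell steeply. Cyp11a1, which cuts the side chain of cholesterol, read 6.57 and 5.47 in homozygous and 11.06, 10.69 and 9.77 in wild type arrays (-4.49 ± 0.51, adjusted p = 8.24e-06). Cyp17a1, the next cytochrome of the pathway, read 6.21 and 7.13 against 11.67, 10.86 and 8.89 (-3.81 ± 0.89, adjusted p = 0.00186). The homozygous arrays lie below all wild type arrays for both, although wild type array 3 is low for Cyp17a1. A lack of overlap, in either direction, held for 74.1% of all genes tested. Other steroid synthesis genes of the list differed. Hsd3b1 changed by -0.68 ± 0.19, Star did not pass (-0.64 ± 0.36, adjusted p = 0.138), and Hsd17b3 rose (1.26 ± 0.50, adjusted p = 0.0398). Akr1c14, which reduces steroids in immature Leydig cells, rose from 6.90, 7.10 and 7.53 to 7.85 and 8.93 (1.22 ± 0.27), and Ptgds, a prostaglandin synthase, by 1.56 ± 0.29. Of 14 Leydig genes tested 4 rose and 4 fell (median -0.07; 57.1% called against 61.1% of all genes), the latter 2 without homozygous array 1, and Hsd3b6 and Insl3 were not tested here. Among 19 receptors for gonadotropins, steroids and activin-type ligands and their signal carriers 13 rose and 1 fell (median 0.61). Bmpr1b, a receptor for bone morphogenetic proteins, read 6.69 and 6.32 against 4.42, 4.50 and 4.85 (1.92 ± 0.19). Smad3, which carries activin signals, changed by 1.52 ± 0.17 and the glucocorticoid receptor gene Nr3c1 by 1.02 ± 0.11.

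Cells around the tubules gave higher values. Acta2, the smooth muscle actin of peritubular myoid cells, read 13.06 and 13.43 against 12.13, 12.18 and 12.57 (0.95 ± 0.16), and Tagln, an actin-binding protein of smooth muscle, 11.72 and 11.88 against 9.84, 10.02 and 10.71 (1.60 ± 0.19). Of 14 peritubular genes 10 rose and 0 fell (median 0.76), and of 24 matrix genes 15 rose and 0 fell (median 0.77), beside 32.7% higher over all genes. Mmp2, a protease of the matrix, rose from 6.80, 7.20 and 7.77 to 8.98 and 9.31. Wild type array 3, which carries epididymal and fat transcript, was the highest of its group for Acta2, Tagln and Mmp2. Without homozygous array 2 the matrix count was 9 of 24 and its median 0.52. The muscle coat of the epididymis shares Acta2 and Tagln, and its part was not tested. Among 16 endothelial genes 2 rose and 2 fell (median 0.19), with 4 higher without homozygous array 1, and Pecam1, the platelet and endothelial adhesion molecule, read 5.56 and 5.41 against 5.40, 5.36 and 5.12 (adjusted p = 0.232).

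Of 22 macrophage genes 11 fell, 4 rose and 7 did not pass, beside 28.4% lower and 32.7% higher over all genes (median -0.41). Aif1, which codes for an actin-binding protein of macrophages, read 6.10 and 5.32 against 9.03, 8.73 and 8.27, the steepest fall of the list (-2.96 ± 0.38). The arrays stood in the same order for the round spermatid list means, 7.49 and 6.20 against 9.93, 9.74 and 9.45. Which cells carried the Aif1 transcript was not tested. Fcgr3, a receptor for antibodies, read 8.68 and 8.15 against 9.55, 9.77 and 9.55 (-1.21 ± 0.13), and Cx3cr1, the fractalkine receptor, 4.70 and 4.57 against 5.74, 5.57 and 5.56 (-0.99 ± 0.14). Adgre1, a surface receptor that marks mature macrophages, changed by -0.99 ± 0.17. Csf1r, the receptor macrophages need to live, read 8.29 and 8.51 against 8.65, 8.53 and 8.39, which overlap (-0.13 ± 0.21, adjusted p = 0.615). Without homozygous array 2 the count was 8 lower and 1 higher, and without wild type array 1 the higher count was 1 as well. Of 13 lymphocyte and mast cell genes 5 fell and 0 rose (median -0.26), and 3 fell without homozygous array 2 or wild type array 2. Interferon response genes gave 9 higher and 2 lower of 21 (median 0.36; 52.4% called), a count of 5 and 2 with a median of 0.05 without homozygous array 2. B2m, the light chain of class I molecules, read 12.07 and 12.16 against 10.98, 11.10 and 11.05 (1.07 ± 0.19). Of 4 red blood cell genes 2 fell (median -0.32), and Alas2, the haem synthesis enzyme of red cells, went from 7.90, 7.80 and 7.92 to 6.14 and 6.45.

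The largest rises of all included several genes known from the epididymis, a description of the named genes that was not tested as a theme. Defb42, a beta-defensin, read 11.61 and 12.08 against 4.33, 4.15 and 7.29 (6.59 ± 0.84, adjusted p = 1.67e-05). Cd52, a surface glycoprotein of sperm in the epididymis and of lymphocytes, read 12.92 and 12.90 against 5.90, 6.34 and 8.35 (6.05 ± 0.95). Serpina1f, a serpin, read 10.84 and 10.29 against 3.92, 3.92 and 5.80 (6.02 ± 0.91). Wild type array 3 stands above arrays 1 and 2 in each, and so does heterozygous array 2 in its group, with 7.57 against 4.59 and 4.51 for Defb42. Defb9 and Defb2, other defensins, rose by 5.84 ± 0.38 and 5.58 ± 0.56, and the protease inhibitors Wfdc15b and Spink10 by 5.47 ± 0.72 and 4.94 ± 0.68. Gpx3, the secreted glutathione peroxidase, read 12.30 and 12.14 against 7.21, 8.04 and 9.74. Cldn8, a claudin of ducts, read 7.72 and 7.88 against 3.12, 3.48 and 3.46, with no wild type array near. Of the combined list of 14 epididymal, fat and muscle genes 6 rose and 1 fell (median 0.23). The falling member was Rnase10 (-1.83 ± 0.36), a secreted ribonuclease family protein of the epididymis, at 7.01 and 5.13 against 7.99, 7.95 and 7.74. Rnase10 read 7.61 to 8.29 in every array outside the exposed homozygous group, also where the epididymal sum was low. The largest falls among all genes called without overlap were in Iqcf3 (-5.21 ± 0.46), 1700113H08Rik (-5.16 ± 0.50) and Gm19723 (-5.02 ± 0.42), with Capza3, Smcp, Odf1, Tmco2 and Acrv1 close behind.

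Akt1 itself gives no check of the genotype labels, since the deleted part is not stated. Its brightest probe set read 9.45 and 9.53 in homozygous and 9.53, 9.50 and 9.44 in wild type arrays (0.00 ± 0.10, adjusted p = 0.991 over every probe set). A dimmer one read 8.56 and 8.01 against 8.99, 9.33 and 8.93 (-0.80 ± 0.19, adjusted p = 0.00196), and in unexposed mice its difference was -0.78 ± 0.17. The other pair of Akt1 probe sets gave -0.06 ± 0.13 and -0.28 ± 0.18. Akt2, the related kinase gene, read 10.32 and 10.14 against 10.30, 10.21 and 10.17 in its brightest probe set (0.00 ± 0.09), while its other probe sets gave -0.55 ± 0.20 (adjusted p = 0.0301) and 0.42 ± 0.10 (adjusted p = 0.00159) and so disagree. In the list of 25 pathway genes 15 rose and 1 fell (median 0.40; 64% called against 61.1% of all genes). Foxo3, a factor that Akt kinases shut out of the nucleus, read 10.24 and 10.54 against 9.31, 9.06 and 9.20 (1.20 ± 0.16). Rictor, the subunit that defines the mTOR complex which phosphorylates Akt, read 9.68 and 9.93 against 8.96, 8.75 and 9.01 (0.90 ± 0.12). Sgk3, a kinase related to Akt, changed by 0.62 ± 0.10. Among 30 genes next to Akt1 on its chromosome 15 rose and 6 fell (median 0.30), 70% called against 61.1% of all genes. Crip1, a small zinc-binding protein, read 11.21 and 11.78 against 8.80, 9.41 and 9.98, and Siva1, a gene of cell death, 12.30 and 12.32 against 11.33, 11.37 and 11.42.

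Thyroid hormone action had no common direction. Of 14 genes 3 rose and 2 fell (median -0.04; 35.7% called against 61.1% of all genes), with 5 lower without homozygous array 1 and with Thra as given above. The coactivator gene Ncoa1 changed by 0.71 ± 0.10 and the partner receptor gene Rxrb by 0.78 ± 0.14. Dio2, the deiodinase that makes active hormone, gave -0.46 ± 0.15, a call lost without homozygous array 2 (-0.23) or wild type array 1 (-0.39). Of 15 genes of insulin-like factors 8 rose and 2 fell (median 0.63; 66.7% called, near the share of all genes). Igf1r, the receptor that signals to Akt, read 9.59 and 10.07 against 8.56, 8.57 and 8.68 (1.23 ± 0.18), and Dlk1, a membrane protein of immature cells, 9.24 and 10.90 against 7.19, 7.39 and 7.98. Insl6, an insulin-like gene of germ cells, fell from 11.66, 11.55 and 11.50 to 10.56 and 9.86.

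Lists of general cell functions are read against the 61.1% called over all genes. Ribosomal protein genes gave 24 higher and 0 lower of 26 (median 0.36), and Rps4x, which lies on the X chromosome, had the largest change, from 11.87, 12.05 and 12.35 to 13.41 and 13.73. Without homozygous array 2 their count was 13. Of 28 proteasome genes 12 rose and 2 fell (median 0.26; 50% called), and of 37 respiratory chain genes 11 rose and 7 fell (median 0.07; 48.6% called), or 7 and 3 without homozygous array 2. Cox6b1, a subunit of complex IV, changed by 1.09 ± 0.13 and its testis form Cox6b2 by -0.74 ± 0.11. Glucose and lactate genes divided, 10 higher and 13 lower of 27 (median -0.23; 6 higher without homozygous array 2), and the steepest falls were in sperm forms, Aldoart1 (-3.84 ± 0.39) and Gapdhs. Cholesterol genes gave 10 higher and 2 lower of 23 (median 0.33; 52.2% called). Fdft1, the squalene synthase, fell from 12.41, 12.36 and 12.11 to 11.55 and 11.07, while Srebf1, which drives lipid synthesis, rose by 1.53 ± 0.18. Without homozygous array 2 the cholesterol count was 5 higher and 1 lower. Of 23 cell death genes 11 rose and 5 fell (median 0.06; 69.6% called; 3 fell without wild type array 1), among them Casp8 (1.48 ± 0.18) and Bmf (1.39 ± 0.16), both promoters of apoptosis, and Bcl2l14 (-2.41 ± 0.26). Of 30 cell cycle genes 12 rose and 6 fell (median 0.18; 60% called), and the replication licensing genes Mcm2 and Mcm5 changed by 1.09 ± 0.13 and 1.00 ± 0.12. Immediate early and heat shock genes, which also move with tissue handling, gave 16 higher and 2 lower of 25 (median 0.59). Egr2 read 6.32 and 7.11 against 4.63, 4.55 and 4.98 (2.00 ± 0.21).

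Without PTU the same genotypes differed in fewer genes and, for spermatids, the other way. Homozygous minus wild type in unexposed mice, on arrays that are all different from those above, called 2065 of 16305 genes (12.7%), 872 higher (5.35%) and 1193 lower (7.32%). Quantile normalization turned that balance, to 1093 higher and 769 lower. Of the 872 genes 520 (59.6%, or 11.2% of the 4625 lower in exposed mice) fell in exposed mice and 39 (4.47%) rose. Of the 1193 genes 579 (48.5%, or 10.9% of the 5334 higher in exposed mice) rose in exposed mice and 164 (13.7%) fell. Over all genes the fold changes in exposed and unexposed mice had a Pearson r of -0.50 and a Spearman rho of -0.42, a description across 16305 genes that are not independent. Median fold change in unexposed mice was 0.97 for round and 1.21 for elongating spermatid genes, with 12 of 34 and 11 of 30 called higher. It was -0.11 for spermatogonia, -0.13 for tight junction genes and -0.02 for later spermatocytes. Tnp1 averaged 12.98 in unexposed homozygous and 10.20 in unexposed wild type arrays, and Prm1 13.09 and 9.90. For both genes the exposed homozygous arrays are below all other groups and the unexposed homozygous arrays above every unexposed wild type array, as the plot of marker genes shows. Unexposed heterozygous arrays averaged 13.39 for Tnp1 and 13.63 for Prm1, so the higher level without PTU was not particular to the homozygous genotype. Round spermatid genes averaged 10.63, 11.41 and 11.37 in those arrays and 10.94, 10.78 and 11.04 in unexposed homozygous arrays. The unexposed wild type arrays were spread for Tnp1, at 11.94, 9.37 and 9.28.

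**Figure D5:**
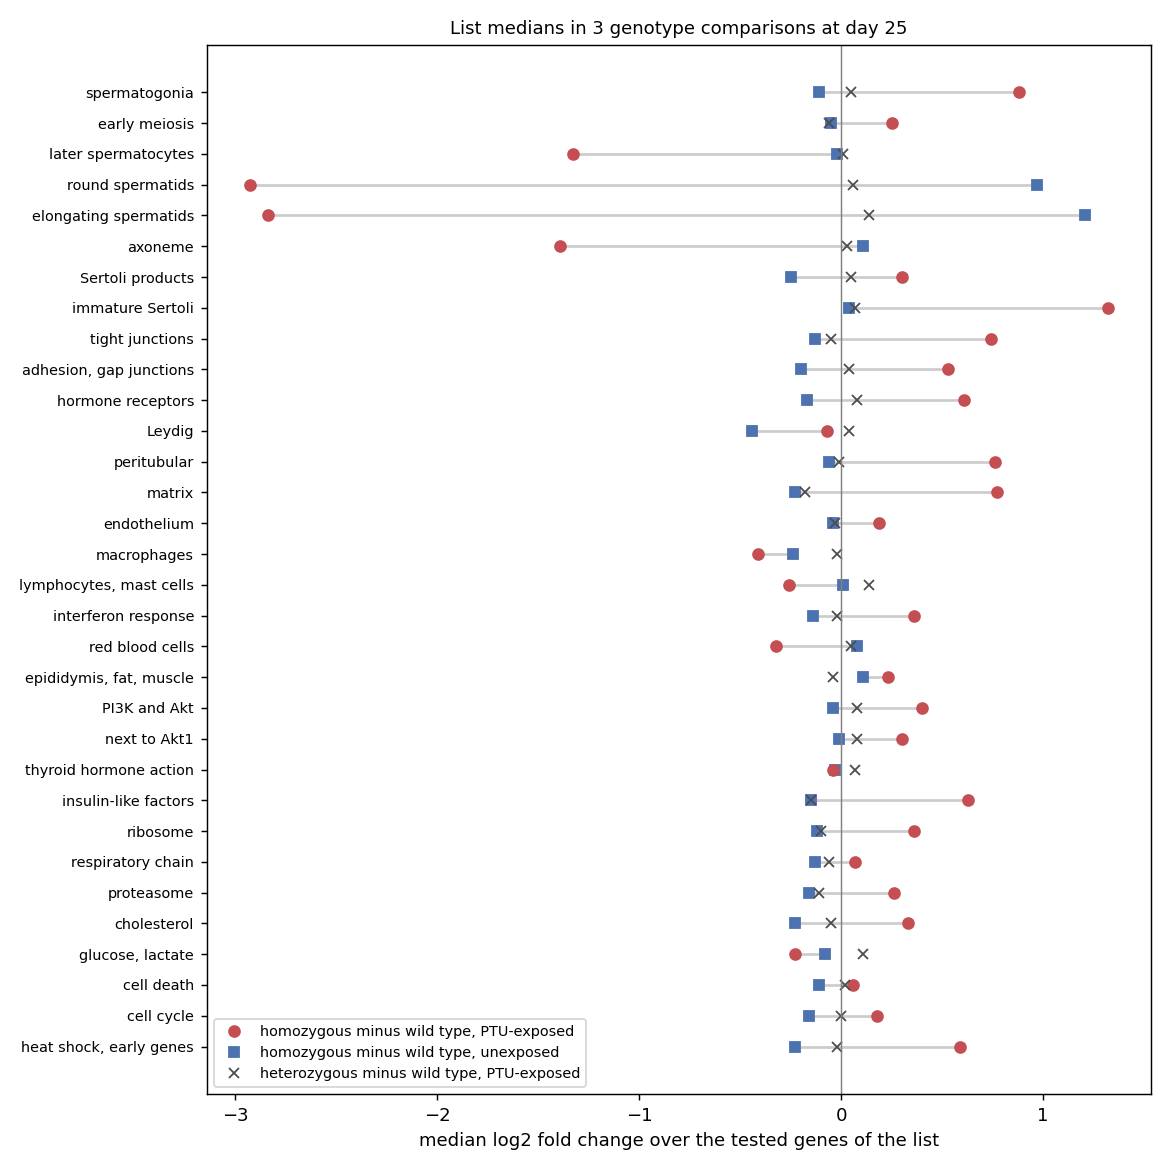
Median log2 fold change of each of 32 lists for homozygous minus wild type with PTU (circles) and without (squares) and for heterozygous minus wild type with PTU (crosses). Round spermatid genes lie at -2.93 with PTU and 0.97 without, spermatogonia at 0.88 and -0.11, and the crosses stay near 0.

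The difference between these differences, the interaction of genotype and exposure, passed in 9684 genes (59.4%), 5396 higher (33.1%) and 4288 lower (26.3%), and it shares the exposed arrays with the main comparison. The epididymal transcript of the exposed homozygous arrays thus enters the interaction too, and its part was not tested. With the poly-A control mean as a covariate 4127 passed (25.3%). Clca3a2, a calcium-activated chloride channel regulator, read 6.94 and 7.16 in the exposed homozygous arrays and 3.59, 3.66 and 3.82 in exposed wild type (interaction 3.46, adjusted p in exposed mice 4.97e-10). Its means in unexposed mice were 3.46 and 3.56, so the groups without PTU stand together. Spam1, the sperm hyaluronidase, read 4.69 and 4.28 against 9.01, 8.79 and 8.50 with PTU and averaged 9.31 and 8.62 without (interaction -4.98). Muc4, a membrane mucin, read 3.77 and 3.71 against 7.81, 7.52 and 7.24 and averaged 8.39 and 7.49 without (interaction -4.68). Tnp1 had an interaction of -6.96 and Iqcf3 of -6.76. The round spermatid list had a median interaction of -3.95 and the spermatogonia list of 1.04.

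Exposed heterozygous mice stayed near wild type. Heterozygous minus wild type, which shares the wild type arrays with the main comparison, called 15 genes (0.092%), 4 higher (0.0245%) and 11 lower (0.0675%), and 2208 at an unadjusted p under 0.05. Homozygous minus heterozygous, which shares the homozygous arrays, called 10561 (64.8%), 5436 higher (33.3%) and 5125 lower (31.4%). The heterozygous arrays read 10.03, 9.41 and 10.48 for Acrv1, 9.93, 10.30 and 11.42 for Cyp11a1, and 7.70, 7.87 and 7.82 for Zbtb16. Each of these lies within 1 unit of the wild type range given above. At day 15, on other arrays and another array type, homozygous minus wild type in exposed mice called 0 of 16710 genes with limma, and 4266 (25.5%) had an unadjusted p under 0.05. A fit blocked on sample number called 750 (4.49%), 442 higher and 308 lower. The labels state no pairing, and that block was chosen from correlations in the same arrays, so its calls are no independent result. Of 137 genes named by rule and tested at day 15, 8 passed in that fit. Of the 1080 genes that rose by more than 1 at day 25, 1022 were tested at day 15 and 46.3% of those were higher there; of the 1698 that fell, 1285 were tested and their median at day 15 was 0.01. Zbtb16 gave 0.19, Cldn11 -0.10 and Cyp11a1 0.12 at day 15, and none of them passed in either fit.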

How the data were processed

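Testis RNA was read on Affymetrix arrays. The deposited values are log2 intensities made by the authors with RMA, per the submitters' processing notes; no version is given in the sources used here. They were used as deposited. Of 45101 probe sets at day 25, 34958 have 1 gene symbol, 932 several and 9211 none in the platform annotation, and a gene was read from its brightest probe set on average. Testing needed a level over 4.76, the 25th percentile, on at least 2 arrays. All 17 arrays were fitted in R 4.3.3 with limma 3.58.1 on 6 group means (lmFit, contrasts.fit, eBayes), with Benjamini-Hochberg adjustment over all genes and a threshold of 0.05; day 15 was fitted by itself. The fit was tested on simulated data. The comparison and the 32 gene lists were chosen with earlier results of these data known. A list is described by its counts and median, to be read against those of all genes, with no test of the list.

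Genes are named by rule: Akt1 and Akt2, up to 15 largest rises and falls among called genes whose arrays do not overlap, up to 4 members of each list with the smallest p, the 10 smallest p of the interaction, and fixed testis markers. A summed level is the log2 of the sum of linear values. The number of arrays limits the precision. Deviations of same-numbered homozygous and wild type arrays from their group means correlated at 0.313 and -0.182 in exposed mice of day 25, where 2 arrays mirror each other and the check is weak, and at 0.193, 0.062 and -0.11 in unexposed mice, so the numbers were not taken as pairs there. At day 15 they correlated at 0.557, 0.141 and 0.423, and the fit with the number as a block is given beside the other. The labels state no pairing, the block was chosen from the same data, and arrays of unlike number were not compared at that age. Alternatives were the filter, the probe set rule, quantile normalization, the groups fitted, array weights, a trended robust prior, the sample number as a block, control-based covariates and leaving out each array. The fit without arrays that carry epididymal transcript was chosen after seeing the data.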

Additional observations from a re-analysis of the deposited data

Results flagged for a closer look

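The homozygous minus wild type difference was not the same with and without PTU in 5396 genes on the higher side and 4288 on the lower side, by limma's test of the interaction at day 25. Of 169 named genes 159 passed it, beside 9684 of 16305 over all genes (59.4%). The named genes were picked largely by small p or large change in the same exposed arrays, and 10 by this interaction. Their count is therefore no independent result. The 10 with the smallest p had interactions of 3.87 for 2300002M23Rik, 3.46 for Clca3a2, 4.51 for Cldn8, 1.87 for Cryl1, 2.63 for Gm16136, 2.89 for Hacd4, 2.55 for Khdc1a, -4.68 for Muc4, 2.23 for Rgn and -4.98 for Spam1. Opposite directions were called in exposed and unexposed mice for 14 named genes, Muc4 among them. Lower with PTU and higher without were Tnp1 (-6.96), Iqcf3 (-6.76), Prm1 (-5.50), Odf3 of the outer dense fibres (-4.59), Izumo1 (-4.26), Catsper3 (-3.71), Bcl2l14 (-3.42) and the hexokinase gene Hk1 (-2.48). Higher with PTU and lower without were Dmc1 (1.39), Dmrt1 (1.51), Tex11 (1.52), Zfyve21 (1.42) and Ndufa1 (0.87). The exposed homozygous arrays had epididymal sums of 13.03 and 12.88, against 8.68 to 9.09 in unexposed arrays. The epididymal genes Spink8 and Adam7 had interactions of 6.05 and 3.89, while Lcn8 had 0.03 and Rnase10 -2.27. The part of epididymal tissue in the interactions above, such as that of Cldn8, was not tested. Groups hold 2 or 3 arrays, and no outlier test was run within them.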

How the results depend on the processing

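Limits: the exposed homozygous group has 2 arrays, which differ from wild type together in genotype, epididymal transcript and beta-actin 3' minus 5' difference, and these cannot be told apart. Values near the 25th percentile of all values (4.76) carry little signal over background, so folds of genes that reach it are uncertain.

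The count of 9959 genes for exposed homozygous minus wild type became 16954 of 29599 with every probe set on its own and 592 with the beta-actin covariate; leaving out 1 array gave 7241 to 10428. With array weights it was 6686 and with the groups compared alone 8427. The interaction count of 9684 became 15755 with every probe set and 4127 with the poly-A covariate, and 7910 to 10549 without 1 array. The unexposed count of 2065 became 4871 with array weights. Heterozygous minus wild type went from 15 to 0 without a filter, 49 with quantile normalization, 2330 with array weights and 0 with the replicate block. Homozygous minus heterozygous went from 10561 to 6943 with array weights. At day 15 the 0 calls became 123 with quantile normalization, 1187 with array weights and 750 with the replicate block. Under a replicate block on the labels' sample numbers the main count was 9780, the interaction count 9487, the unexposed count 1581 and the homozygous minus heterozygous count 10408. The cause of these changes was not tested. Of 169 named genes, 115 lost their call and 52 kept their side of the threshold with the beta-actin covariate, and 14 lost it with array weights. Directions turned for Cryl1 with the most variable probe set (-0.44), for Dio2 (0.05) and the haemoglobin gene Hba-a2 (0.22) with the beta-actin covariate, and for Hba-a2 with the poly-A covariate (0.01). The most variable probe sets of Akt1 (-0.80) and Akt2 (-0.55) passed where the brightest did not.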
